A study of Mus musculus with 48 samples.

Results

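Intercalated cells are the acid and base handling cells of the renal connecting tubule and collecting duct, and 10 genes that carry out this work were followed in mouse kidneys after subtotal nephrectomy. The 10 genes were listed by symbol, with earlier results of these data known, so no count over them is independent evidence. Each was read from the probe set that names only that gene and has the highest mean over the 48 arrays. A probe set was found for 9 of the 10, out of 13174 genes tested; Atp6v1g3 was not analysed here. All 9 lay above the filter on low values in every one of the 48 arrays. Whole-kidney RNA had been hybridised to 1 Affymetrix array per mouse, and mice were 9 weeks old at surgery. The groups were FVB mice after subtotal nephrectomy (Nx), FVB mice after sham operation, C57BL/6 (B6) mice after Nx and B6 mice after sham operation, each at days 2, 28 and 53, with 4 mice per group. The submitters describe FVB as predisposed to renal lesions and B6 as not predisposed. No treatment or allele other than strain and surgery is given, and a whole kidney mixes all segments of the nephron with vessels and other cells.

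Type A intercalated cells secrete protons into the urine through an apical V-ATPase and return bicarbonate to the blood through the basolateral exchanger Slc4a1. Type B and non-A, non-B cells secrete bicarbonate in exchange for chloride through the apical exchanger Slc26a4, known as pendrin. Carbonic anhydrase supplies protons and bicarbonate inside the cell, Rh glycoproteins carry ammonia across the membranes, and the transcription factor Foxi1 is needed for these cells to form in mice. In humans, inherited loss of ATP6V1B1, ATP6V0A4, SLC4A1 or FOXI1 function is known to cause distal renal tubular acidosis.

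In mice, Foxi1 is known to act on the promoters of several of these genes, so their proximal promoters were read for a forkhead core motif. RefSeq promoters (GRCm38.p6) were at hand for Atp6v1b1, Atp6v0a4, Rhcg, Foxi1 and Slc26a4, that is for 5 of the 9 measured genes. In the 250 bases before the start that the promoter table gives, 3 of these 5 held TGTTTNC on either strand, against 17.8% of 32851 promoters of the same length. The 3 are printed 5′ to 3′ on the strand of the gene, with the match in capitals. A link between these matches and the changes of the transcripts was not tested.
Atp6v1b1, chr6:83742767-83743016, + strand: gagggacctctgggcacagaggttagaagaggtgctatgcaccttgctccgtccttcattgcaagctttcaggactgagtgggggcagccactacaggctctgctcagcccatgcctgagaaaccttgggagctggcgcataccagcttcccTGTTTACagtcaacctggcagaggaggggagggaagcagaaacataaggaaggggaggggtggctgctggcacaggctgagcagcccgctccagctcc
Slc26a4, chr12:31559985-31560234, - strand: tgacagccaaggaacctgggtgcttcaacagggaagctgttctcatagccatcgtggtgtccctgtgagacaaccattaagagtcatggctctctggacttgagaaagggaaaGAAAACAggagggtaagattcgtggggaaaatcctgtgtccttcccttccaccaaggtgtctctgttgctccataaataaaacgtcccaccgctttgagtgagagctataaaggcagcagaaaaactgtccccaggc
Foxi1, chr11:34208090-34208339, - strand: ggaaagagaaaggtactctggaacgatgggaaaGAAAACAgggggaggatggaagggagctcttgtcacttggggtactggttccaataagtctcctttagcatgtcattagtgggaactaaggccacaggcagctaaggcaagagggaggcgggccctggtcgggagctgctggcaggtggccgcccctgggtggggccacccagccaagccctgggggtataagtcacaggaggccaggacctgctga

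The Atp6v1b1 match began 98 bases before the start and had the letters TGTTTAC, one form of TGTTTNC, which 3.17% of the promoters hold on either strand. The Slc26a4 match began 137 bases and the Foxi1 match 217 bases before the start, both on the opposite strand. For Slc26a4 the RefSeq extent of the gene, chr12:31519814-31560055, overlaps the printed window, so the start used by the promoter table lies inside the annotated gene. The looser TNTTTNC, which takes in TGTTTNC, was found in the same 3 promoters and in 48.1% of all promoters. TATTTAC (2.73% of all promoters), TGTTTGC (4.3%), TGTTTAT (4.16%) and AAACCGG (1.6%) had no match in the 5. AACCGG, held by 5.62% of all promoters and also part of AAACCGG, began 9 bases before the start of Rhcg on the opposite strand. These are matches of letters in a short window and were not tested for binding.

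The deposited values were on a log2 scale and were used as deposited. A difference is the mean log2 value after Nx minus that after sham operation, tested with limma over all 13174 genes with Benjamini-Hochberg adjustment and a threshold of 0.05. Several things moved with surgery across the kidneys and are given once here. Of 11 measured macrophage markers, 11, 9 and 11 were higher in FVB mice after Nx at days 2, 28 and 53. Of all 13174 genes, 3273, 968 and 3412 were higher. The median differences of the markers were 3.43, 2.38 and 4.13. In B6 mice 11, 9 and 9 markers were higher at these days, when 2655, 1297 and 1058 of all genes were. The medians of the markers were 2.72, 2.38 and 2.11. The summed level of the markers in FVB mice ran from 15.07 to 16.02 after Nx and 11.68 to 12.87 after sham operation at day 2, from 13.10 to 14.16 and 11.47 to 12.12 at day 28, and from 14.69 to 15.27 and 11.42 to 11.80 at day 53, on the log2 scale. In B6 mice it ran from 14.46 to 15.52 after Nx and 12.25 to 12.64 after sham operation at day 2, from 13.53 to 15.30 and 11.66 to 12.01 at day 28, and from 13.55 to 13.94 and 11.51 to 12.31 at day 53. Most or all macrophage markers were therefore higher after Nx at each time in both strains, and the summed levels of Nx and sham mice did not overlap at any of them. Transcripts of the exocrine pancreas stood out, with a mean above 5 on the log2 scale for 14 such genes, in 16 of 24 arrays after Nx and 3 of 24 after sham operation. Counts without those arrays are given below; each strain then keeps 1 Nx mouse at day 2, 1 at day 28 and 2 at day 53. The part of macrophage or pancreas transcripts in the results was not tested. Shifting every array to 1 common median moved the median difference of all genes at day 2 in FVB mice to -0.26, against -0.03 as deposited. With that shift 7131 genes were lower and 2132 higher there, against 3948 lower and 3273 higher as deposited.

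At day 53 all 9 measured genes fell in FVB kidneys after Nx, when 27.8% of all genes were lower in that comparison. Their median difference was -1.84, against -0.01 for all genes tested. In B6 kidneys at day 53, 7 of the 9 fell, when 6.68% of all genes were lower, with a median difference of -1.24 against -0.01 for all genes. Without the arrays above the cut for pancreas transcripts the counts at day 53 were again 9 in FVB and 7 in B6 mice. The FVB Nx mice kept there still had pancreas means above those of sham mice. In a whole kidney, fewer intercalated cells and less of these RNAs per cell cannot be told apart.

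**Figure D1:**
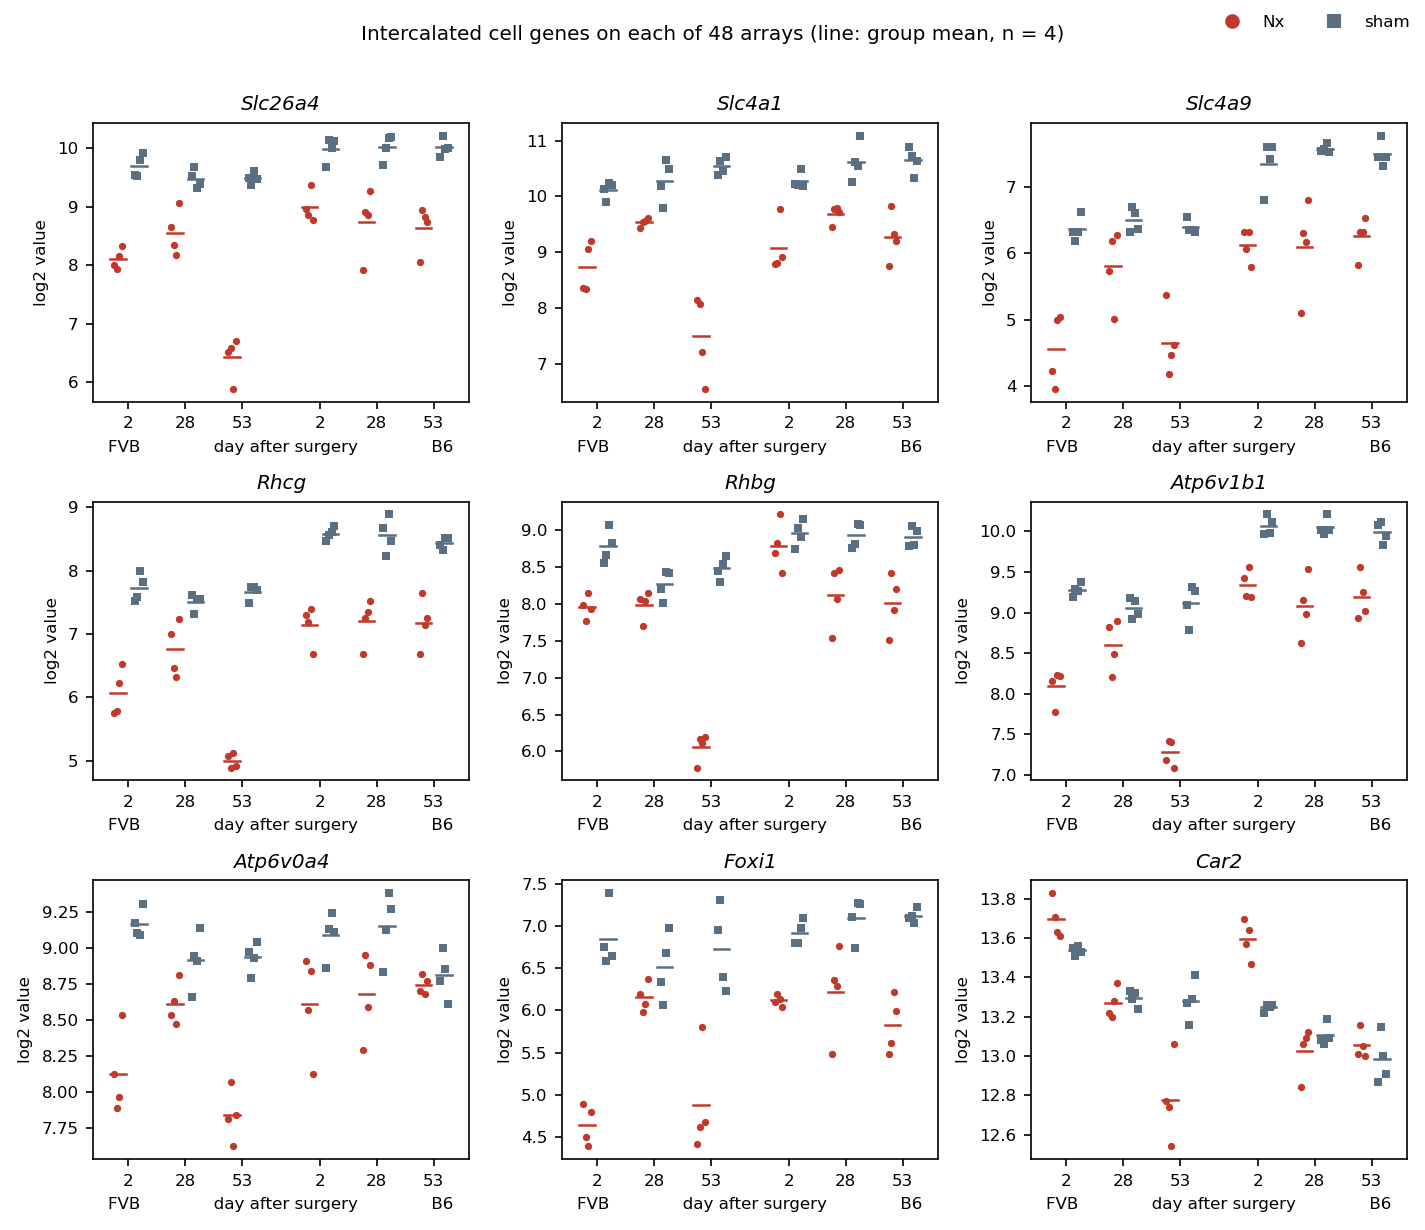
Log2 value of 9 intercalated cell genes on each array, by strain and day after surgery, with Nx as circles left of sham as squares and a line at the mean of 4 mice. In FVB mice at day 53 the Nx circles of each gene lie below the sham squares, and for Slc26a4 they lie between 5.88 and 6.71 against 9.37 to 9.62.

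Among the bicarbonate exchangers, Slc26a4 had log2 values of 6.52, 6.58, 5.88 and 6.71 in FVB mice at day 53 after Nx, against 9.49, 9.37, 9.62 and 9.48 after sham operation. The groups were far apart, and no other group of mice had an array as low. The difference was -3.07 ± 0.20 (SE, n = 4 each, adjusted p = 2.55e-15), which is 8.39-fold lower. B6 mice at day 53 had values of 8.06, 8.94, 8.82 and 8.74 after Nx, against 9.86, 10.22, 9.99 and 10.00 after sham operation. The groups did not overlap, and the difference was -1.38 ± 0.20 (adjusted p = 6.65e-06).

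Slc4a1, the exchanger of type A cells and of red blood cells, had values of 8.15, 8.07, 7.21 and 6.55 in FVB mice at day 53 after Nx, against 10.38, 10.64, 10.46 and 10.70 after sham operation. The Nx mice were spread over a wide range and all lay below the sham mice, with a difference of -3.05 ± 0.25 (adjusted p = 5.44e-13). The B6 values at day 53 were 8.76, 9.82, 9.32 and 9.21 after Nx and 10.89, 10.72, 10.33 and 10.64 after sham operation, a difference of -1.37 ± 0.25 (adjusted p = 0.000138). The probe set used is of a kind that may bind related transcripts. A second Slc4a1 probe set moved the same way, by -3.15 in FVB and by -1.32 in B6 mice at day 53.

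Because red cells also carry Slc4a1, red cell genes were read on the same arrays. Of 13 listed red cell genes, 8 had a probe set and 3 passed the filter. The globin gene Hbb-b2 had one value, 6.29, in all mice of 3 FVB groups and group means from 6.03 to 6.37, so its probe set gave no measure of red cells. At day 53 in FVB mice Alas2, the haem synthesis enzyme of red cell precursors, differed by 0.11 (adjusted p = 0.824). Its means there were 3.06 after Nx and 2.95 after sham operation, near the low end of the scale. A fall of Alas2 could therefore hardly have been seen. The erythroid transcription factor Klf1, with means of 3.37 and 4.52, was lower by -1.14 (adjusted p = 0.000458). Klf1 was also lower by -1.02 in FVB mice at day 2 (adjusted p = 0.00165), by -0.85 in FVB mice at day 28 (adjusted p = 0.0268) and by -0.94 in B6 mice at day 28 (adjusted p = 0.0122). At day 2 Alas2 was lower after Nx by -1.12 in FVB mice (adjusted p = 0.00378) and by -0.82 in B6 mice (adjusted p = 0.0394); the part of these genes in the Slc4a1 result was not tested.

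Slc4a9, the basolateral exchanger of type B cells, had 5.37, 4.17, 4.46 and 4.61 in FVB mice at day 53 after Nx, against 6.55, 6.35, 6.36 and 6.33 after sham operation. The groups did not overlap, the difference was -1.75 ± 0.27 (adjusted p = 7.26e-07), and in B6 mice it was -1.24 ± 0.27 (adjusted p = 0.00104). FVB Nx mice at day 2, with 3.95 to 5.04, overlapped FVB Nx mice at day 53.

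The ammonia carriers fell as well. Rhcg, on both faces of intercalated cells, had values of 5.07, 4.89, 5.12 and 4.92 in FVB mice at day 53 after Nx, against 7.49, 7.75, 7.74 and 7.70 after sham operation. Both groups were tight and the difference was -2.67 ± 0.19 (adjusted p = 1.51e-14), or 6.36-fold lower. Its B6 values at day 53 were 6.68, 7.64, 7.14 and 7.25 after Nx, against 8.41, 8.33, 8.52 and 8.51 after sham operation, a difference of -1.26 ± 0.19 (adjusted p = 8.43e-06).

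Rhbg, the basolateral carrier, had 5.78, 6.17, 6.12 and 6.19 in FVB mice at day 53 after Nx, against 8.44, 8.29, 8.54 and 8.64 after sham operation. Every Nx mouse lay more than a unit below every sham mouse, and the difference was -2.41 ± 0.17 (adjusted p = 1.05e-14). At no other time or strain did Rhbg lie near these values, since the next lowest array was a B6 Nx mouse at day 53 with 7.51. Its difference in B6 mice at day 53 was -0.90 ± 0.17 (adjusted p = 0.000209).

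Both pump subunits that mark intercalated cells fell in FVB mice at day 53. Atp6v1b1, the B subunit isoform of these cells, had 7.19, 7.42, 7.41 and 7.09 after Nx, against 9.09, 8.79, 9.32 and 9.27 after sham operation, a difference of -1.84 ± 0.15 (adjusted p = 2.88e-13). B6 mice at day 53 gave 8.93, 9.56, 9.25 and 9.02 after Nx, against 10.08, 10.11, 9.83 and 9.94 after sham operation, a difference of -0.80 ± 0.15 (adjusted p = 0.00015).

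Atp6v0a4, the membrane-sector subunit of intercalated and some other tubule cells, had 7.81, 8.07, 7.62 and 7.84 in FVB mice at day 53 after Nx, against 8.97, 8.79, 8.93 and 9.04 after sham operation, a difference of -1.10 ± 0.15 (adjusted p = 3.54e-08). For B6 mice at day 53 the values were 8.70, 8.82, 8.68 and 8.77 after Nx and 8.77, 9.00, 8.85 and 8.61 after sham operation, and the groups overlapped. That difference was -0.06, with a 95% interval from -0.36 to 0.23 (adjusted p = 0.881).

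Foxi1 had 4.42, 4.62, 5.80 and 4.68 in FVB mice at day 53 after Nx, against 6.95, 7.31, 6.40 and 6.23 after sham operation. Mouse 8 stood above the other Nx mice but below all sham mice, and the difference was -1.84 ± 0.25 (adjusted p = 3.96e-08). For B6 mice at day 53 the values were 5.48, 5.61, 6.22 and 5.99 after Nx, against 7.09, 7.12, 7.04 and 7.22 after sham operation, a difference of -1.29 ± 0.25 (adjusted p = 0.000225).

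Car2, the cytosolic carbonic anhydrase of intercalated cells, is also found in other tubule cells, red cells and pancreatic ducts. Its log2 value ran from 12.54 to 13.83 over the 48 arrays. Its difference at day 53 was the smallest of the 9 in FVB mice. There it had 12.77, 12.74, 12.54 and 13.06 after Nx, against 13.27, 13.16, 13.29 and 13.41 after sham operation, a difference of -0.50 ± 0.07 (adjusted p = 1.71e-07). In B6 mice at day 53 the difference was 0.07, with a 95% interval from -0.07 to 0.22 (adjusted p = 0.584), and its sign turned to -0.01 with the common median.

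**Figure D2:**
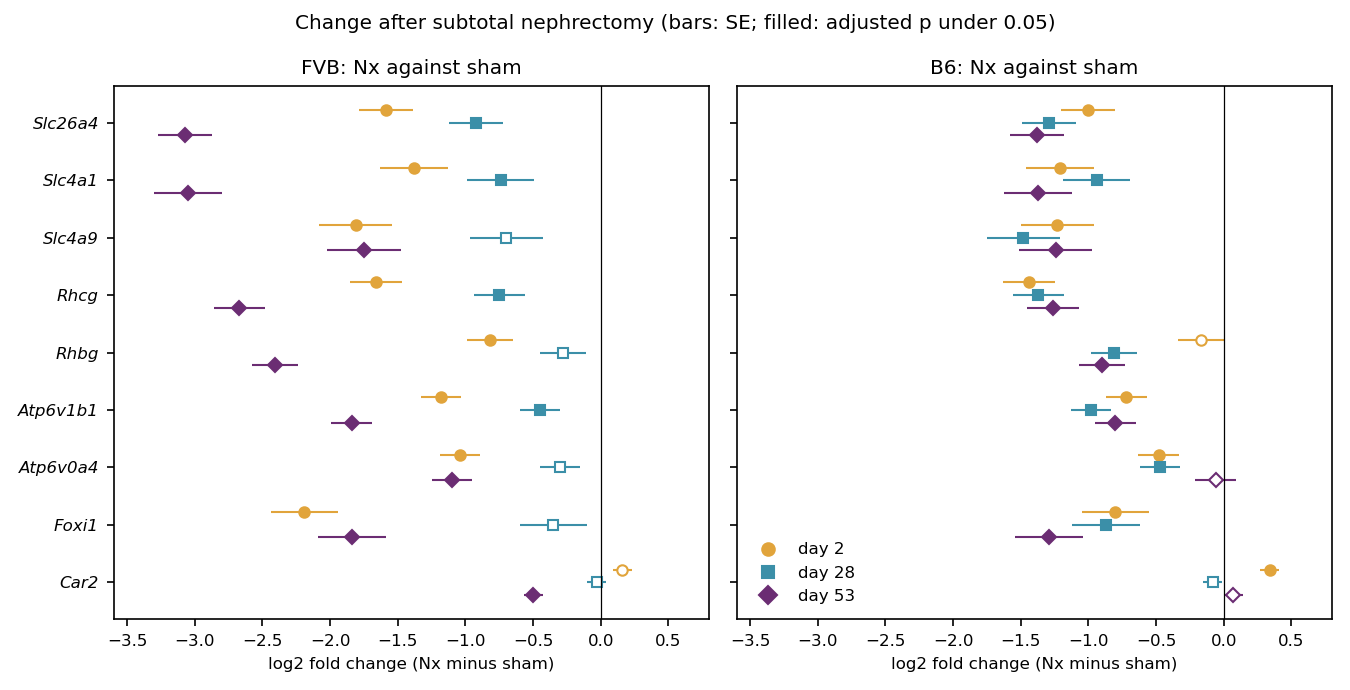
Difference of log2 values, Nx minus sham, of 9 genes in FVB (left) and B6 (right) mice at days 2, 28 and 53, with bars for 1 SE and filled marks for adjusted p under 0.05. In FVB mice day 28 lies nearest 0 for each gene and day 53 farthest for 7 of 9, and in B6 mice the 3 days lie close together for most genes.

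At day 2 the response was already present. In FVB mice 8 of the 9 genes fell, when 30.0% of all genes were lower, with a median difference of -1.38 against -0.03 for all genes. In B6 mice 7 fell, when 24.4% of all genes were lower, and Car2 rose, when 20.2% were higher; the median was -0.80 against -0.02. Without the arrays with pancreas transcripts, with 1 Nx mouse left per strain, 8 and 5 fell; the lone mouse is taken to vary like the other groups. In B6 mice Atp6v0a4 then differed by -0.18 (adjusted p = 0.396) and Foxi1 by -0.82 (adjusted p = 0.14). Atp6v0a4 in B6 mice at day 2, lower by -0.48 (adjusted p = 0.007) on all arrays, differed by -0.31 (adjusted p = 0.0804) without Nx mouse 11.

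Foxi1 had the largest difference of the 9 in FVB mice at day 2. It had 4.89, 4.50, 4.39 and 4.80 after Nx, against 6.75, 6.59, 7.39 and 6.64 after sham operation, a difference of -2.19 ± 0.25 (adjusted p = 9.92e-10). B6 mice at day 2 had 6.10, 6.20, 6.14 and 6.04 after Nx, against 6.80, 6.80, 6.98 and 7.09 after sham operation, a difference of -0.80 ± 0.25 (adjusted p = 0.00738). Neither strain's groups overlapped.

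The exchangers and Rh carriers at day 2 differed in size. Rhcg had 5.76, 5.79, 6.22 and 6.53 in FVB mice after Nx against 7.52, 7.59, 8.00 and 7.82 after sham operation, a difference of -1.66 ± 0.19 (adjusted p = 1.85e-09). Slc26a4 was lower by -1.59 in FVB mice (adjusted p = 2.12e-08) and 2.0-fold lower in B6 mice (adjusted p = 0.000112). Rhbg in B6 mice had 8.68, 8.82, 9.21 and 8.42 after Nx against 8.74, 9.03, 8.90 and 9.15 after sham operation, and these groups overlapped, with a difference of -0.17 (adjusted p = 0.448, 95% interval from -0.52 to 0.17).

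Car2 did not fall with the transporters at day 2. In B6 mice it had 13.70, 13.57, 13.64 and 13.47 after Nx against 13.22, 13.26, 13.25 and 13.26 after sham operation, a difference of 0.34 ± 0.07 (adjusted p = 0.000145). With the common median the difference was 0.19 (adjusted p = 0.0709), so the call depends on the scaling. The FVB difference at day 2 was 0.16 (adjusted p = 0.065), or -0.07 with the common median and 0.22 (adjusted p = 0.00576) after quantile normalisation. The highest Car2 value of either strain came from an Nx mouse with no pancreas transcripts, with 13.83 in FVB mouse 1, whose pancreas mean was 2.90, and 13.70 in B6 mouse 3, whose pancreas mean was 2.92.

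Day 28 gave the smallest differences in FVB mice. There 4 of 9 genes fell, when 8.81% of all genes were lower, with a median of -0.45 against -0.02 for all genes. Slc26a4 had 8.65, 8.35, 8.18 and 9.06 after Nx against 9.53, 9.68, 9.33 and 9.39 after sham operation, a difference of -0.92 ± 0.20 (adjusted p = 0.00119). Rhcg was lower by -0.75 (adjusted p = 0.00464), Slc4a1 by -0.74 (adjusted p = 0.0369) and Atp6v1b1 by -0.45 (adjusted p = 0.0294). Foxi1 had 6.20, 5.98, 6.08 and 6.37 after Nx against 6.34, 6.06, 6.68 and 6.97 after sham operation, and these overlapped, with a difference of -0.35 (adjusted p = 0.373).

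The FVB calls at day 28 were not firm. Slc4a1 missed the threshold when any array other than sham mouse 2 was left out (adjusted p from 0.0527 to 0.136). The count was 2 of 9 when mouse 3 or mouse 7 after Nx, or mouse 1 or mouse 3 after sham operation, was left out, and 2 in a fit of the 8 arrays alone. Dropping the arrays that carried pancreas transcripts left Nx mouse 2 against 2 sham mice and a count of 1, with Slc4a9 lower by -0.91 (adjusted p = 0.039) and Slc26a4 differing by -0.85 (adjusted p = 0.0575).

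Among B6 mice at day 28, 8 of 9 genes fell, when 9.14% of all genes were lower, and the median was -0.94 against -0.02. Slc26a4 had 7.91, 8.91, 8.86 and 9.27 after Nx against 9.72, 10.00, 10.17 and 10.20 after sham operation, a difference of -1.29 ± 0.20 (adjusted p = 1.37e-05). The lowest Nx value of Slc26a4, Slc4a1, Slc4a9, Rhcg, Rhbg, Atp6v1b1, Atp6v0a4, Foxi1 and Car2 came from mouse 3. That mouse was also the only B6 Nx mouse at day 28 without pancreas transcripts, so those properties cannot be told apart. Without mouse 3 the count was 6, with Foxi1 differing by -0.62 (adjusted p = 0.102) and Atp6v0a4 by -0.34 (adjusted p = 0.142). Atp6v0a4 also missed the threshold without sham mouse 5 (-0.39, adjusted p = 0.0862) or sham mouse 6 (-0.43, adjusted p = 0.0584). A fit of the 8 arrays alone called 5 of 9.

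The course over time was compared within each strain as a change of the difference. In FVB mice 5 of 9 genes were closer to sham at day 28 than at day 2, when 12.8% of all genes had a higher effect. Foxi1 changed most, by 1.84 (adjusted p = 0.000128), followed by Slc4a9 with 1.12 (adjusted p = 0.0276), Rhcg with 0.91 (adjusted p = 0.0114), Atp6v0a4 with 0.74 (adjusted p = 0.00672) and Atp6v1b1 with 0.73 (adjusted p = 0.00893). Between days 28 and 53 all 9 dropped further, when 12.6% of all genes did, by amounts from -0.47 for Car2 to -2.31 for Slc4a1. The Slc4a9 steps, 1.12 and then -1.05 (adjusted p = 0.0381), each missed the threshold when certain single mice were left out, for instance 0.92 (adjusted p = 0.0898) without Nx mouse 2 of day 2 and -0.89 (adjusted p = 0.0983) without Nx mouse 8 of day 28. Without the arrays with pancreas transcripts the later step passed for 7 of 9, with Foxi1 at -1.32 (adjusted p = 0.0902) and Car2 at -0.39 (adjusted p = 0.11). Both comparisons use the day 28 mice. In the step from day 2 to day 28, Slc4a1 changed by 0.64 (limma adjusted p = 0.194) and its second probe set by 1.09 (adjusted p = 0.0148). With the common median, Slc26a4 (0.83, adjusted p = 0.0374) and Rhbg (0.7, adjusted p = 0.0319) passed that step too. Rhbg was the clearest late change, with a difference of -0.28 (adjusted p = 0.295) at day 28 and -2.41 at day 53, a step of -2.14 (adjusted p = 2.93e-08).

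In B6 mice fewer changes of the effect over time passed the test, and they depended on the arrays used. Between days 28 and 53, 0 of 9 genes were lower by limma, when 0% of all genes were. At an unadjusted p under the threshold 0 of 9 were lower or higher, when 1.43% of all genes were lower. Between days 2 and 28 Car2 was lower, by -0.42 (adjusted p = 0.00591), when 4.02% of all genes were. That Car2 call missed the threshold with the common median (-0.37, adjusted p = 0.0554). At an unadjusted p under the threshold 2 genes were lower, Car2 and Rhbg (-0.64, adjusted p = 0.0939), when 9.97% of all genes were. With arrays that carried pancreas transcripts dropped, and 1 B6 Nx mouse left at each of days 2 and 28, 5 genes were lower between days 2 and 28. These were Slc4a9 at -1.46 (adjusted p = 0.00703), Slc26a4 at -1.19 (adjusted p = 0.0311), Rhbg at -1.17 (adjusted p = 0.019), Atp6v0a4 at -0.78 (adjusted p = 0.0225) and Car2 at -0.72 (adjusted p = 0.0194). Between days 28 and 53, 4 genes were then higher, namely Slc4a9 by 1.32 (adjusted p = 0.0071), Slc26a4 by 1.08 (adjusted p = 0.0283), Atp6v0a4 by 0.91 (adjusted p = 0.00353) and Atp6v1b1 by 0.85 (adjusted p = 0.0227).

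The strains were then compared in how their kidneys responded, as the FVB difference minus the B6 difference. At day 53, 7 of 9 genes dropped further in FVB mice, when 14.9% of all genes did, with a median of -1.04 against 0.01 for all genes. The size was -1.69 for Slc26a4 (adjusted p = 2.47e-05), -1.68 for Slc4a1 (adjusted p = 0.000381), -1.52 for Rhbg (adjusted p = 8.1e-06) and -1.40 for Rhcg (adjusted p = 0.000121). Both pump subunits gave similar values, -1.04 for Atp6v1b1 (adjusted p = 0.000206) and -1.03 for Atp6v0a4 (adjusted p = 0.000187), and Car2 gave -0.58 (adjusted p = 4.03e-05). Slc4a9 differed by -0.50 (adjusted p = 0.362, 95% interval from -1.27 to 0.27) and Foxi1 by -0.56 (adjusted p = 0.249, 95% interval from -1.26 to 0.15), so a strain difference in these was not shown. Without FVB Nx mouse 8 the Foxi1 difference was -0.86 and passed the test (adjusted p = 0.0413). Without the arrays with pancreas transcripts the count was 8, with Slc4a9 at -0.69 (adjusted p = 0.0395).

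At day 2 the difference between strains passed the test for 1 of 9 genes, when 2.14% of all genes did in that direction. That gene was Foxi1, with -1.40 ± 0.35 (adjusted p = 0.0133). At an unadjusted p under the threshold 5 genes were lower, when 10.4% of all genes were. The count was 3 without B6 Nx mouse 11, 2 without FVB Nx mouse 5, and 2 without the arrays with pancreas transcripts. In the last of these the 2 were Slc4a9 at -1.12 (adjusted p = 0.0468) and Atp6v0a4 at -0.87 (adjusted p = 0.0128), while Foxi1 differed by -1.13 (adjusted p = 0.347). At day 28 limma called 0 of 9 lower, when 0.0683% of all genes were. At an unadjusted p under the threshold 4 were higher there, when 1.67% of all genes were, and 0 lower, when 2.84% were. With 1 Nx mouse per strain left after dropping arrays with pancreas transcripts, 5 were higher; the B6 one of these was mouse 3, the lowest of its group.

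Sham mice of the strains also differed. Over the 3 days, 5 of 9 genes were lower in FVB than in B6 sham mice, when 15.6% of all genes were, and 1 was higher, when 16.9% were. Slc4a9 had 6.19 to 6.70 in FVB sham mice against 6.80 to 7.78 in B6 sham mice, with a difference of -1.06 ± 0.16 (adjusted p = 6.46e-07). Atp6v1b1 had 8.79 to 9.38 in FVB against 9.83 to 10.21 in B6 sham mice, and the groups did not overlap (-0.89 ± 0.09, adjusted p = 3.23e-11). Rhcg was lower by -0.89 (adjusted p = 1.43e-08), Slc26a4 by -0.45 (adjusted p = 0.00231) and Rhbg by -0.42 (adjusted p = 0.000688), while Car2 was higher by 0.26 (adjusted p = 3.17e-06).

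For Slc26a4 the order of the 12 group means began with FVB Nx at day 53, with 6.42 ± 0.37 (SD, n = 4), then FVB Nx at day 2 with 8.11 ± 0.17, FVB Nx at day 28 with 8.56 ± 0.38 and B6 Nx at day 53 with 8.64 ± 0.39. The last 2 of these lay within each other's spread. B6 Nx at days 28 and 2 followed with 8.73 ± 0.58 and 8.99 ± 0.26, and the 6 sham groups lay from 9.48 ± 0.15 to 10.02 ± 0.22. For Foxi1 the lowest pair was FVB Nx at day 2 with 4.65 ± 0.24 and at day 53 with 4.88 ± 0.62, which overlapped, and every other group lay at 5.83 or above.

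The drop of the pump subunits was set against the V-ATPase subunits that all cells use, which acidify lysosomes and other compartments. Of 16 such subunits, 11 were lower and 2 higher in FVB mice at day 53, when 27.8% of all genes were lower and 25.9% higher. The median of the 16 was -0.21. The smallest p-values belonged to Atp6v1d, with -0.52 (adjusted p = 1.16e-09), Atp6v1c1, which was higher by 0.51 (adjusted p = 4.45e-09), and Atp6v1e1, with -0.43 (adjusted p = 8.2e-08). In B6 mice limma called 0 of 16 in either direction at days 28 and 53, when 9.14% and 6.68% of all genes were lower. At an unadjusted p under the threshold 1 was lower at day 53, Atp6v1d, when 14.2% of all genes were, and 0 at day 28, when 16.4% were. The medians there were -0.02 and 0.01 at days 28 and 53, beside -0.98 and -0.80 for Atp6v1b1. Atp6v0a4 differed by -0.47 at day 28 (adjusted p = 0.0188) and by -0.06 at day 53 (adjusted p = 0.881) in B6 mice. At day 2 the mean after Nx was lower than after sham operation for most of the 16 subunits in both strains and higher for the rest. Atp6v1b2 had means of 10.83 after Nx and 11.36 after sham operation in FVB mice, and 10.81 and 11.27 in B6 mice. Atp6v0a4 differed by -0.48 in B6 mice at that day.

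**Figure D3:**
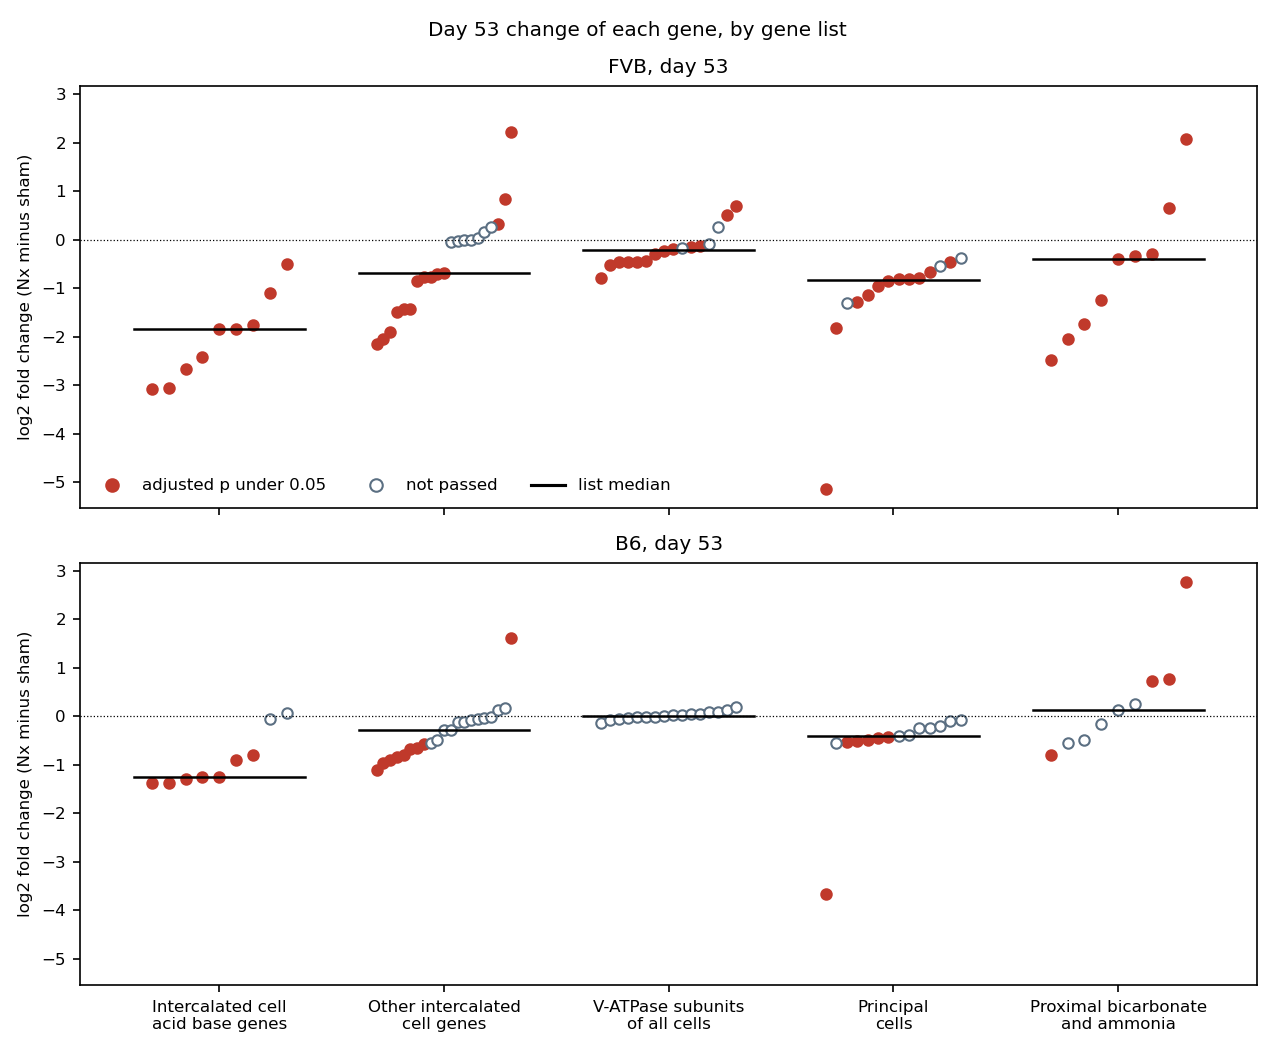
Difference of log2 values, Nx minus sham, of each gene at day 53 in FVB (top) and B6 (bottom) mice, by gene list, with filled marks for adjusted p under 0.05 and a line at the list median. The acid base genes have medians of -1.84 and -1.24, and the V-ATPase subunits of all cells of -0.21 and 0.01.

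Within an array, Atp6v1b1 minus Atp6v1b2 compares the intercalated cell isoform with the widely expressed isoform of the same subunit. In FVB mice at day 53 it averaged -3.66 ± 0.18 after Nx and -2.29 ± 0.17 after sham operation (SD, n = 4 each), and the 2 groups did not overlap. The exact two-sided permutation test over mice gave p = 0.0286, which is the smallest that 4 against 4 allows, and 0.0735 after adjustment over 18 such tests. The change was -0.79 at day 28 and -0.77 at day 53 in B6 mice, and -0.65 at day 2 in FVB mice, with the same exact p each. It was -0.44 at day 28 in FVB mice (exact permutation p = 0.0571) and -0.26 at day 2 in B6 mice (exact permutation p = 0.0857). At day 28 in FVB mice and day 2 in B6 mice, Nx and sham mice overlapped. None of the 18 tests passed after adjustment. To pass, most of the 18 would have had to reach the smallest p, so a miss after adjustment cannot show that a pair did not change.

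Slc26a4 minus Slc4a1, the exchanger of type B and non-A, non-B cells against that of type A cells, gave no change that passed the test. The change after Nx was -0.20, -0.18 and -0.02 at days 2, 28 and 53 in FVB mice and 0.21, -0.34 and -0.01 in B6 mice, with exact permutation p-values (n = 4 each) from 0.229 to 0.971. Leaving out each mouse in turn turned the sign at day 28 in FVB mice (-0.36 to 0.05) and at day 53 in FVB (-0.43 to 0.16) and B6 mice (-0.14 to 0.09). At day 2 the change then ran from -0.30 to -0.12 in FVB and from 0.13 to 0.32 in B6 mice, and at day 28 in B6 mice from -0.51 to -0.14. At day 53 in FVB mice the difference of the pair ran from -1.63 to 0.16 after Nx and from -1.27 to -0.85 after sham operation, so the Nx mice differed widely among themselves.

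Foxi1 minus Aqp2, the transcription factor of intercalated cells against the water channel of principal cells, was lower after Nx by -1.19 at day 2, and by -1.29 at day 53 in FVB mice. In B6 mice at day 53 it averaged -3.71 ± 0.16 after Nx and -2.50 ± 0.12 after sham operation (SD, n = 4 each), a change of -1.21. Each of these 3 had an exact permutation p of 0.0286 and an adjusted p of 0.0735. At day 28 in FVB mice the change was 0.03 (exact permutation p = 0.943). In B6 mice it was -0.21 at day 2 (exact permutation p = 0.571) and -0.53 at day 28 (exact permutation p = 0.371). In each of these 3 comparisons Nx and sham mice overlapped.

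**Figure D4:**
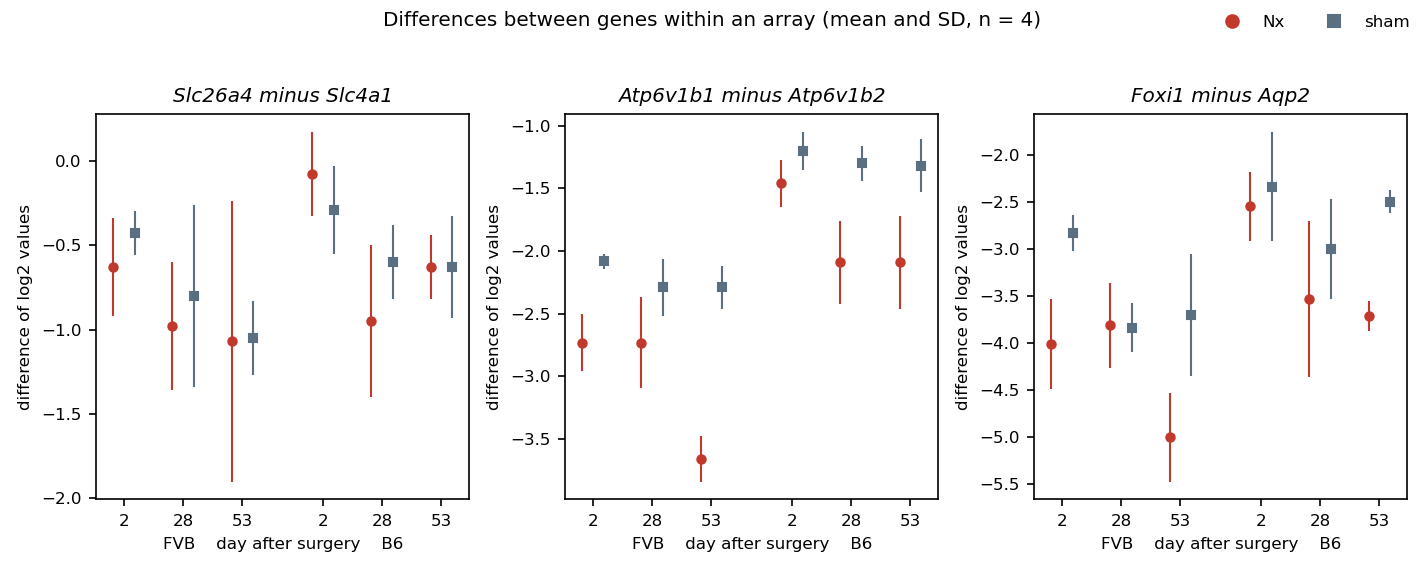
Difference of the log2 values of a pair of genes on the same array, by strain and day after surgery, with Nx as circles left of sham as squares; marks are means and bars SDs of 4 mice. Atp6v1b1 minus Atp6v1b2 is lowest in FVB Nx mice at day 53, at -3.66, and Slc26a4 minus Slc4a1 differs little between Nx and sham.

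Further genes of intercalated cells moved in part with the 9. Of 21 measured genes of a second list, 11 were lower and 3 higher in FVB mice at day 53, when 27.8% of all genes were lower and 25.9% higher, with a median of -0.68. In B6 mice 8 were lower and 1 higher, when 6.68% of all genes were lower and 8.03% higher, with a median of -0.29. Atp6v1c2, the C subunit isoform of the renal pump, was lower by -2.14 in FVB mice (adjusted p = 2.89e-14) and by -0.97 in B6 mice (adjusted p = 2.63e-05). Oxgr1, the receptor for 2-oxoglutarate on type B and non-A, non-B cells, was lower by -1.91 (adjusted p = 1.14e-11) and by -1.11 (adjusted p = 2.06e-05) in the same order of strains. Hepacam2, an adhesion protein found in intercalated cells, was lower by -1.49 (adjusted p = 3.77e-11) and by -0.90 (adjusted p = 2.68e-05).

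The potassium channel gene Kcnma1 went the other way, with 1.54 at day 28 in FVB mice (adjusted p = 0.00129) and 2.18 in B6 mice (adjusted p = 1.26e-05). Its means after Nx and sham operation were 5.01 and 2.59 at day 2 and 4.91 and 2.7 at day 53 in FVB mice. In B6 mice they were 5.35 and 3.68 at day 2 and 5.12 and 3.5 at day 53. Kcnma1 is also expressed in smooth muscle and other cells. At day 2, 12 genes of this list were lower and 5 higher in FVB mice, when 30.0% of all genes were lower and 24.8% higher. In B6 mice 10 were lower and 3 higher, when 24.4% of all genes were lower and 20.2% higher. Tfcp2l1, a transcription factor of collecting duct cells, was among the higher ones, by 0.62 in B6 mice at day 2 (adjusted p = 9.31e-09).

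Genes of the neighbouring principal cells, which reabsorb sodium and water, fell too. Of 14, 11 were lower in FVB mice at day 53, when 27.8% of all genes were, and 6 in B6 mice, when 6.68% were. None was higher, when 25.9% and 8.03% of all genes were, and the medians were -0.83 and -0.42. The apical potassium channel Kcnj1 was lower by -1.81 in FVB (adjusted p = 9.48e-17) and by -0.42 in B6 mice (adjusted p = 0.00452). Aqp4, a basolateral water channel, was lower by -5.14 in FVB (adjusted p = 1.23e-08) and by -3.67 in B6 mice (adjusted p = 8.48e-05). Aqp2 moved far less at day 53. Its means were 9.88 after Nx and 10.43 after sham operation in FVB mice, and 9.54 and 9.62 in B6 mice. Nx and sham mice overlapped for Aqp2 in both strains. All 4 distal convoluted tubule genes were lower in FVB mice at day 53, when 27.8% of all genes were. In B6 mice 1 of 4 was, when 6.68% were. Slc12a3, the thiazide-sensitive cotransporter, was lower by -3.02 in FVB mice (adjusted p = 1.14e-15). Changes of this kind were therefore not confined to the intercalated cell genes.

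The proximal tubule handles acid upstream, by reclaiming bicarbonate and making ammonia from glutamine. Of 9 such genes, 7 were lower and 2 higher in FVB mice at day 53, when 27.8% of all genes were lower and 25.9% higher. In B6 mice 1 was lower and 3 higher, when 6.68% of all genes were lower and 8.03% higher. Car4, the membrane carbonic anhydrase, was lower by -2.47 in FVB (adjusted p = 2.24e-14), and Slc9a3, the apical sodium-proton exchanger, by -1.25 (adjusted p = 5.27e-13). Slc38a3, the glutamine carrier that supplies ammonia formation, rose by 2.07 in FVB mice (adjusted p = 7.85e-06) and by 2.77 in B6 mice at day 53 (adjusted p = 9.37e-07). Glud1, the glutamate dehydrogenase, was lower by -0.39 in FVB mice (adjusted p = 0.000168) and higher by 0.72 in B6 mice (adjusted p = 1.3e-07). In these B6 kidneys Rhcg, which carries the ammonia out, was lower by -1.26.

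Across the 48 arrays, 8 of the 9 genes followed each other closely. Pearson correlations of the 28 pairs without Car2 ran from 0.74 to 0.96, and those of the 8 pairs with Car2 from -0.12 to 0.44. The points share strain, surgery and day. After the group means were subtracted, the 28 pairs ran from 0.06 to 0.71, with a median of 0.44.

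Of genes outside the 9, those most like the mean of the 9 over the 48 arrays were Myom2 with r = 0.958, Atp6v1c2 with 0.956, Tmem213 with 0.956, Prps2 with 0.952 and Tmem52b with 0.95. With group means subtracted they were Itpr2 with 0.852, Apeh with 0.828, Pxmp2 with 0.8, Tmem52b with 0.798 and Auh with 0.795. Single genes had as closest partner Acsm1 for Slc26a4 (0.963), Atp6v1c2 for Slc4a1 (0.942), Oxgr1 for Slc4a9 (0.935), Tmem52b for Rhcg (0.97), Slc26a4 for Rhbg (0.933), Rhcg for Atp6v1b1 (0.962), Selenbp1 for Atp6v0a4 (0.911), Tmem213 for Foxi1 (0.903) and Msrb1 for Car2 (0.857), each over 48 arrays and as a description.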

How the data were processed

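Per the labels, RNA of whole kidneys of 48 mice was hybridised to 1 Affymetrix array each. The deposited table holds log2 values of 45101 probe sets, a unit judged from the values (2.1979 to 16.1753); MAS5 is named in the submitters' processing notes with no role, and background correction, summarisation and normalization are not given in the sources used here. All arrays share the lowest value, at which 32.1% of values lie. Array medians lay between 3.17 and 3.44 and no 2 arrays were identical. Precision is limited by the number of arrays, 4 in each group.

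Values were used as deposited. Probe sets were named from the platform annotation supplied (34958 with 1 symbol, 932 with several, 9211 not listed). A gene entered the tests if 4 or more arrays exceeded 2.277, the 40th percentile of all values, and was read from the single-symbol probe set of highest mean. All 48 arrays entered 1 limma fit (limma 3.58.1, R 4.3.3) with 12 group means, eBayes with an intensity trend, and Benjamini-Hochberg adjustment over 13174 genes, two-sided, threshold 0.05. The fit was tested on simulated data. Differences between genes within an array had exact two-sided permutation tests (scipy 1.17.1). Labels name each mouse separately and no batch.

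The 9 measured genes were tested and counted in every comparison, and in several comparisons only some of them are printed with values. From each other list the 3 genes of smallest p were eligible, and all of a list of 5 or fewer; Aqp2 and Atp6v1b2 entered as partners. The genes and lists were chosen with earlier results of these data known, so no count over them is independent evidence. Mouse numbers recur between Nx and sham mice of a strain and day, which cannot be the same animal; of 4 same-numbered pairs in FVB mice at day 2, 1 correlated above 0.1 (-0.002 to 0.127). The other groups had under 3 such pairs, with -0.251 and 0.378 in FVB mice at day 28, no pair in FVB mice at day 53, 0.281 for 1 pair in B6 mice at day 2, -0.057 and 0.168 at day 28 and 0.225 for 1 pair at day 53. The mice were treated as unpaired. Alternatives were quantile normalization, a common median, other filters, array weights, no trend, the arrays of each comparison alone, the mean of probe sets, mouse number as a block, leaving out arrays with pancreas transcripts, and leaving out each array.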

Additional observations from a re-analysis of the deposited data

Results flagged for a closer look

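In 108 groups of 4 arrays (9 genes, 12 groups), 5 held an array apart from the other 3 by Dixon's criterion, which chance flags in about 1 in 20 groups. In B6 mice at day 2, Slc4a1 had 9.77 in Nx mouse 9, against 8.79 to 8.92 in the others, and 10.5 in sham mouse 4, against 10.19 to 10.23. Slc4a9 had 6.55 in FVB sham mouse 1 at day 53, against 6.33 to 6.36. Rhbg had 5.78 in FVB Nx mouse 4 at day 53, against 6.12 to 6.19. Atp6v1b1 had 7.77 in FVB Nx mouse 2 at day 2, against 8.16 to 8.23.

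There were 23 tested differences between effects with an adjusted p under 0.05 by limma. Between strains, FVB minus B6, Foxi1 differed by -1.40 at day 2. At day 53 the same contrast gave -1.69 for Slc26a4, -1.68 for Slc4a1, -1.40 for Rhcg, -1.52 for Rhbg, -1.04 for Atp6v1b1, -1.03 for Atp6v0a4 and -0.58 for Car2. In FVB mice, day 28 minus day 2, the effect changed by 1.12 for Slc4a9, 0.91 for Rhcg, 0.73 for Atp6v1b1, 0.74 for Atp6v0a4 and 1.84 for Foxi1. In FVB mice, day 53 minus day 28, it changed by -2.14 for Slc26a4, -2.31 for Slc4a1, -1.05 for Slc4a9, -1.92 for Rhcg, -2.14 for Rhbg, -1.39 for Atp6v1b1, -0.80 for Atp6v0a4, -1.49 for Foxi1 and -0.47 for Car2. In B6 mice, day 28 minus day 2, Car2 changed by -0.42.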

How the results depend on the processing

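The calls for Slc26a4, Rhcg and Atp6v1b1 at days 2 and 53 in both strains kept their direction and side of the threshold under each alternative run. Counts of the 9 genes moved as follows, and the cause was not tested unless given. With quantile normalization 1 gene was higher in FVB mice at day 2 and 1 lower for day 28 against day 2. With a common median 0 were higher in B6 mice at day 2 and 0 lower for day 28 against day 2. With array weights 2 were lower for FVB against B6 at day 2. With the arrays of the comparison alone, a fit on fewer arrays, 1 was higher in FVB mice at day 2, and 2 in FVB and 5 in B6 mice were lower at day 28. With the replicate block on mouse number (consensus correlation 0.126) 1 was higher in FVB mice at day 2, Car2, and no other count moved by over 1.5 times.

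With the arrays that carried pancreas transcripts left out, and so 1 Nx mouse of each strain at days 2 and 28, 1 gene was lower in FVB mice at day 28. The strain contrast then had 2 lower at day 2 and 5 higher at day 28. B6 mice had 5 lower for day 28 against day 2 and 4 higher for day 53 against day 28. In B6 mice Atp6v0a4 then changed by -0.78 for day 28 against day 2 and Slc26a4 by 1.08 for day 53 against day 28, both turned in sign. Slc26a4 minus Slc4a1 was -0.92 in B6 mice at day 28, and Atp6v1b1 minus Atp6v1b2 was -0.39 at day 2 and -0.01 at day 28 in FVB mice.

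Leaving out each array in turn gave counts from 2 to 4 lower in FVB mice at day 28, 1 to 3 lower for FVB against B6 at day 2 and 0 to 1 higher in FVB mice at day 2. Precision is that of 4 arrays per group.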
